A study of Mus musculus with 48 samples.

Results

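A set of 9 complement genes, among the 34586 genes of a single-cell UMI count table, were followed through 5 organs of mice with collagen-induced arthritis (CIA) and of healthy mice. The genes were C1qa, C1qb, C1qc, C1ra, C1s1, C4b, C3, Cfb and Serping1, taken as a named list, and all 9 had UMIs. Seq-Well single-cell RNA sequencing, a microwell method that counts transcripts from their 3′ ends with unique molecular identifiers (UMIs), had been applied to joint, lung, muscle, skin and spleen of 10 male DBA1/J mice. All animals were 8 to 12 weeks old when the study began. The 4 healthy mice (H3, H4, H6 and H7) had received phosphate-buffered saline. The 6 CIA mice had received 100 µg of bovine collagen II in complete Freund's adjuvant and a booster of the same dose in incomplete adjuvant on day 20. Each CIA mouse thus carried adjuvant as well as arthritis, and the healthy mice carried neither. Mice S1, S2 and S3 had severe disease with a summed limb score of 8, whereas S5, S6 and S8 scored between 2 and 5. Severe mice and H3 belonged to one labelled experiment and all other mice to a second, so severity and experiment cannot be told apart.

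Of the 13240 cells in 48 samples, 12096 carried one of 13 cell type labels given by the authors. Joint samples were available from 3 healthy and 5 CIA mice, and the other organs from all 10. A sample held 17748 to 1645734 UMIs (median 124586) in 30 to 1989 cells. In all, 59 cell barcodes occurred in more than 1 library and were carried by 135 cells. The largest such overlap was between muscle and spleen of S8, with 36 barcodes. A single mouse was the unit of replication within an organ. Comparisons between organs used 1 sum per mouse and organ, so the same mouse entered more than once. A term for the mouse was fitted there only as an alternative.

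Complement is a cascade of blood and tissue proteins. In the classical route, C1q binds antibody complexes or dying cells. It then activates its partner proteases C1r and C1s, which cleave C4 and C2. The alternative route uses factor B to amplify cleavage of C3, the protein on which all routes converge. The C1 inhibitor, encoded by Serping1, restrains C1r and C1s. Antibodies to collagen and deposited complement are established features of arthritis in this model. Tissue macrophages are the textbook source of C1q, and liver, fibroblasts and other stromal cells are sources of the proteases and of C3.

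The 3 chains of C1q were neighbours on the minus strand of chromosome 4 (GRCm38): C1qb at chr4:136880129-136886187, C1qc at chr4:136889804-136893065 and C1qa at chr4:136895917-136898803. Gaps of 3616 bases (C1qb to C1qc) and 2851 bases (C1qc to C1qa) separated them. C1ra (chr6:124512405-124523443, plus strand) and C1s1 (chr6:124530345-124542359, minus strand) were separated by 6901 bases. C3 lay at chr17:57203970-57228136, Cfb at chr17:34856374-34862518 and C4b at chr17:34728380-34743882, all on the minus strand. Serping1 was at chr2:84765387-84775444, minus strand. C1ra, C1s1 and C4b each have a near-identical copy (C1rb, C1s2 and C4a) between which reads may be split, so values of these 3 genes are less certain than those of the other members. Cfb starts 85 bases beyond the end of C2, on the same strand.

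The stretches before the start of 2 macrophage genes and 2 fibroblast genes are shown because the 2 sets came from different cells. They are from RefSeq (GRCm38.p6), in which 5 of the 9 members matched. Each is printed 5′ to 3′ on the gene's own strand, and capitals mark a match to one of the motifs searched.
C1qb chr4:136886201-136886450: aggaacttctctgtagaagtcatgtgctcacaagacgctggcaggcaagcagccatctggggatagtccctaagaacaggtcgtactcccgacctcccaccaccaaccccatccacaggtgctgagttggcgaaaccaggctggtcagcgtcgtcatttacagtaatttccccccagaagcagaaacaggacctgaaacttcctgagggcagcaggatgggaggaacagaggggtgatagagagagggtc
C1qc chr4:136893066-136893164: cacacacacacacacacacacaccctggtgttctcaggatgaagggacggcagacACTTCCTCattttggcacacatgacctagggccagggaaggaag
C1s1 chr6:124542360-124542609: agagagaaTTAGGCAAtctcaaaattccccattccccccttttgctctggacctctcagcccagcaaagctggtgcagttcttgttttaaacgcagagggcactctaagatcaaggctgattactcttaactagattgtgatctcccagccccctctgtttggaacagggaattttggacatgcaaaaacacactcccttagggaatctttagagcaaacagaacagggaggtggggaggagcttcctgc
C3 chr17:57228137-57228386: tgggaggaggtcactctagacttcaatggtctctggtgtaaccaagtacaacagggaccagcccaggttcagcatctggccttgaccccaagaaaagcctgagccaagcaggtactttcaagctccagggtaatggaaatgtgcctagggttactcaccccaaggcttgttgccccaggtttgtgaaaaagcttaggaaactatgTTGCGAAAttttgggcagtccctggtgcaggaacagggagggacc

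In all, 5 motifs were searched on both strands of 32851 promoter windows of 300 bases. These windows run past the start and are longer than the stretches printed. The percentages and member matches below refer to the windows. GAGGAAGT, the form bound by the myeloid factor PU.1, was in 3.2% of all promoters and, of the members, in C1qc. TTGCNNAA, bound by C/EBP factors, was in 10.8% of promoters and in those of C1ra, C1s1 and C3. The interferon-gamma element TTCNNNGAA was in 8.3% of promoters and in that of C1ra. TGACTCA (AP-1, 5.2% of promoters) and the NF-kB-type motif (5.56%) had no match in the 5 members. These matches describe letters and are not evidence of binding.

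Macrophages and fibroblasts were the main sources of the 9 genes, and each gene came mostly from one of them, except C3. Macrophages gave 743 of the 876 UMIs of the C1q chains, or 84.8%. Fibroblasts gave 2583 of the 3466 UMIs of the other 6 genes, or 74.5%. Per gene, macrophages held 88.6% of C1qa, 84.5% of C1qb and 83.5% of C1qc UMIs. Fibroblasts held 89.4% of C1ra, 79.5% of C1s1, 85.2% of C4b, 83.6% of Cfb and 81.8% of Serping1 UMIs. C3 was the exception, with 51.2% of its 957 UMIs in fibroblasts and 25.3% in granulocytes. C1qb and C1qc were among the genes that the authors used to name macrophages, and every cell was labelled from the same counts, so these sources are descriptions without a test.

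**Figure D1:**
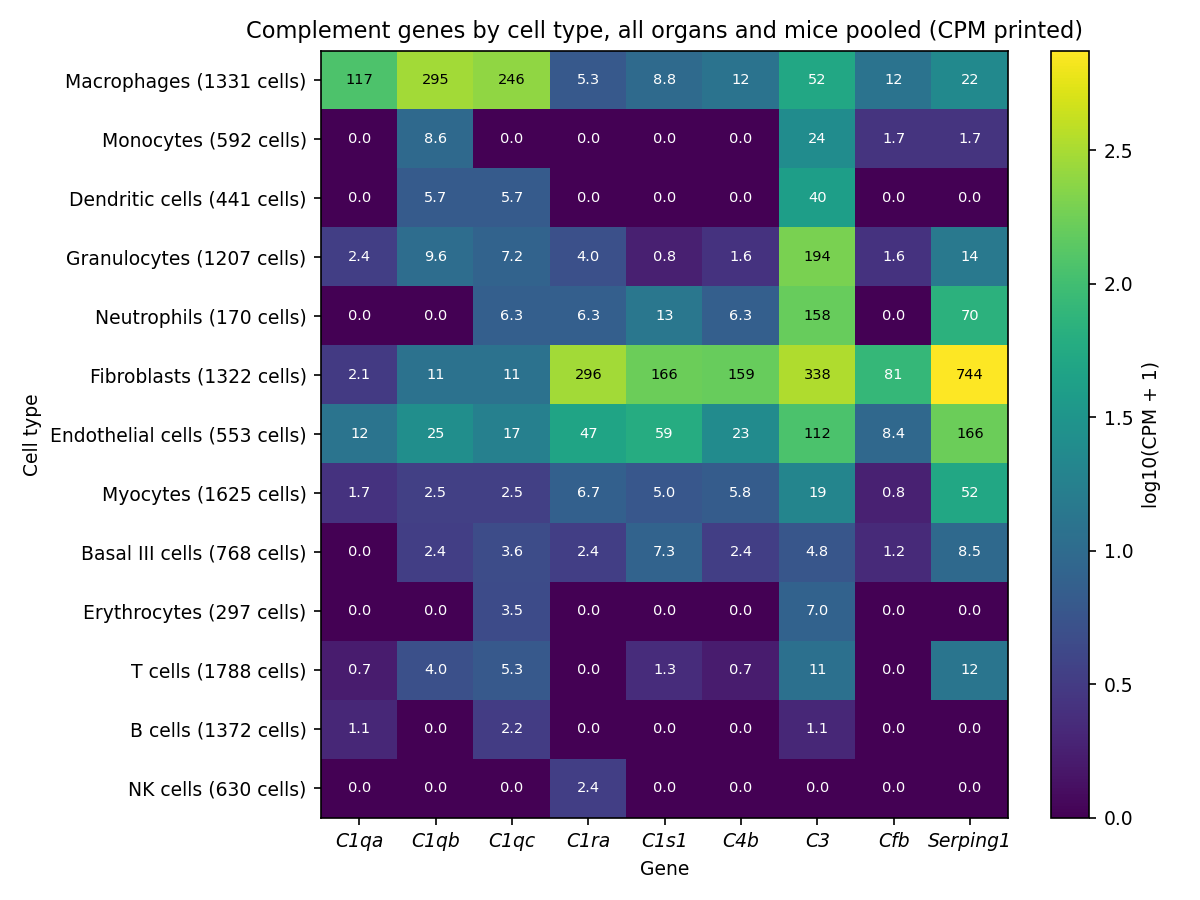
Level of each complement gene (columns) in each of 13 cell types (rows) over all organs and mice, as counts per 1000000 UMIs (CPM) of the cell type, printed in each cell and colored by log10(CPM + 1). The C1q chains stood out in macrophages (117 to 295 CPM), the other 6 genes in fibroblasts (80.8 to 744 CPM), and C3 was also present in granulocytes (194 CPM).

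On the scale of counts per 1000000 UMIs (CPM), pooled macrophages (1331 cells) held C1qb at 295, C1qc at 246 and C1qa at 117. Pooled fibroblasts (1322 cells) held Serping1 at 744, C3 at 338, C1ra at 296, C1s1 at 166, C4b at 159 and Cfb at 80.8 CPM. At least 1 C1qb UMI was found in 10.3% of macrophages and at least 1 Serping1 UMI in 35.9% of fibroblasts. The corresponding shares in T cells, which should lack both, were 0.280% and 1.01%. When every cell was thinned to 400 UMIs, 7.29% of macrophages had C1qb and 21.1% of fibroblasts had Serping1, against 0.112% and 0.280% of T cells. Both shares stood above those of T cells at equal depth. The cells were labelled from the same counts, with C1qb among the macrophage markers, so this is a description and not a test.

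After fibroblasts, the 553 endothelial cells gave the most UMIs of Serping1, C1s1, C1ra and C4b. Their pooled levels were 166 CPM for Serping1, 58.6 for C1s1 and 46.9 for C1ra. Muscle of S5, with 132 of these cells, gave 53 of their 99 Serping1 UMIs and 42 of their 67 C3 UMIs. Serping1 was 322 CPM there, 133 CPM in joint of S1 and 141 CPM in joint of S5. In muscle of H4 (57 cells) it was 44.9 CPM, and C1ra, C1s1 and C4b had no UMI. The part of free RNA in these levels was not tested. For C3, granulocytes (194 CPM) and neutrophils (158 CPM) stood above endothelial cells (112 CPM). The 1372 B cells had no UMI of C1qb, C1ra, C1s1, C4b, Cfb or Serping1, and at most 2 UMIs (2.22 CPM) of any member.

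Within single samples the same split between macrophages and fibroblasts recurred. In the 14 samples with at least 10 cells of each type, C1qb and C1qc were each higher in macrophages in 13 samples and equal in 1. C1qa was higher in macrophages in 11 and equal in 3. C1ra and Serping1 were higher in fibroblasts in all 14 samples. C1s1, C4b and C3 were higher there in 13, and Cfb in 11 with 3 equal. The single exception in direction was C3, higher in macrophages in 1 sample. The mean level of C1qc was 430 ± 420 CPM (SD, n = 14 samples, some from the same mouse) in macrophages and 14.8 ± 18.8 CPM in fibroblasts. For Serping1 it was 27.0 ± 61.1 CPM in macrophages and 906 ± 390 CPM in fibroblasts.

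The 3 chains of C1q assemble in equal numbers into one protein. Their UMIs in macrophages were not equal: 17.8% C1qa, 44.8% C1qb and 37.4% C1qc. Each of the 8 listed macrophage markers other than C1q had UMIs in joint, lung and muscle macrophages. In CIA joints, however, granulocyte markers summed to more than these markers in cells labelled macrophages, as given below with the disease comparison. The order of the chains was the same in joint (17.5%, 43.1% and 39.4%), lung (17.0%, 48.9% and 34.0%) and muscle (19.5%, 47.0% and 33.6%). Of 304 joint macrophages, 91 had a UMI of any chain, 64 had at least 2 chains and 33 had all 3. In joint granulocytes, 24 C1q UMIs split into 12.5%, 50% and 37.5%, in the same order of chains. Of 677 lung macrophages, 40 had any chain and 4 had all 3. Across 160 sums of a sample and a cell type, the log2 level of C1qb correlated with that of C1qc at Pearson's r = 0.82 and that of C1qa with C1qb at 0.81. These sums share libraries and depth, so the correlations are descriptive.

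Pooled over mice, joint macrophages held the most C1q of the 3 organs compared (joint, lung and muscle), and lung macrophages the least. The pooled level of C1qb was 627 CPM in joint, 240 in muscle and 102 in lung macrophages. For C1qc the levels were 573, 172 and 70.6 CPM, and for C1qa 255, 99.5 and 35.3 CPM. Skin gave only 58 macrophages, with C1qb at 220 CPM. Lung macrophages of the 10 mice ranged from 0 to 388 CPM for C1qb, with H6 the highest. Joint macrophages of 7 mice ranged from 165 to 1236 CPM, so the 2 organs overlapped. Muscle of S1, with 9 macrophages, fell under the minimum of 10 cells. It held C1qb at 1648 CPM from 12 UMIs, above that joint range.

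With disease as a covariate, all 3 chains were higher in joint than in lung macrophages (edgeR quasi-likelihood test, Benjamini-Hochberg adjusted). Of the genes past the count filter, 14.2% were called between these organs, as were 0.972% of all genes with a count, the fit from which C1qa was read. The log2 difference was 3.06 for C1qc (SE 0.45), 2.49 for C1qb (SE 0.47) and 2.71 for C1qa (SE 0.52). All 3 calls held without any 1 mouse and under the 10 other settings. Between joint and muscle, where 1.69% of filtered genes and 0.299% of all genes with a count were called, C1qc was higher in joint by 1.91 (SE 0.46, edgeR adjusted p = 0.022). That call was lost without H3, H4, H7 or S6, and with a minimum of 5 or 20 cells. C1qb (1.45, SE 0.49, adjusted p = 0.128) and C1qa (1.54, SE 0.54, adjusted p = 0.399) lay on the same side without passing. No C1q chain passed between lung and muscle, where 29.2% of filtered genes did, with edgeR adjusted p of 0.0976 for C1qc, 0.137 for C1qb and 0.439 for C1qa. The 8 alveolar macrophage markers summed to 732 to 2878 CPM in macrophages of the lung and 0 to 220.2 CPM in those of the joint, where 4 of them were at 0, and their part in these differences was not tested.

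**Figure D2:**
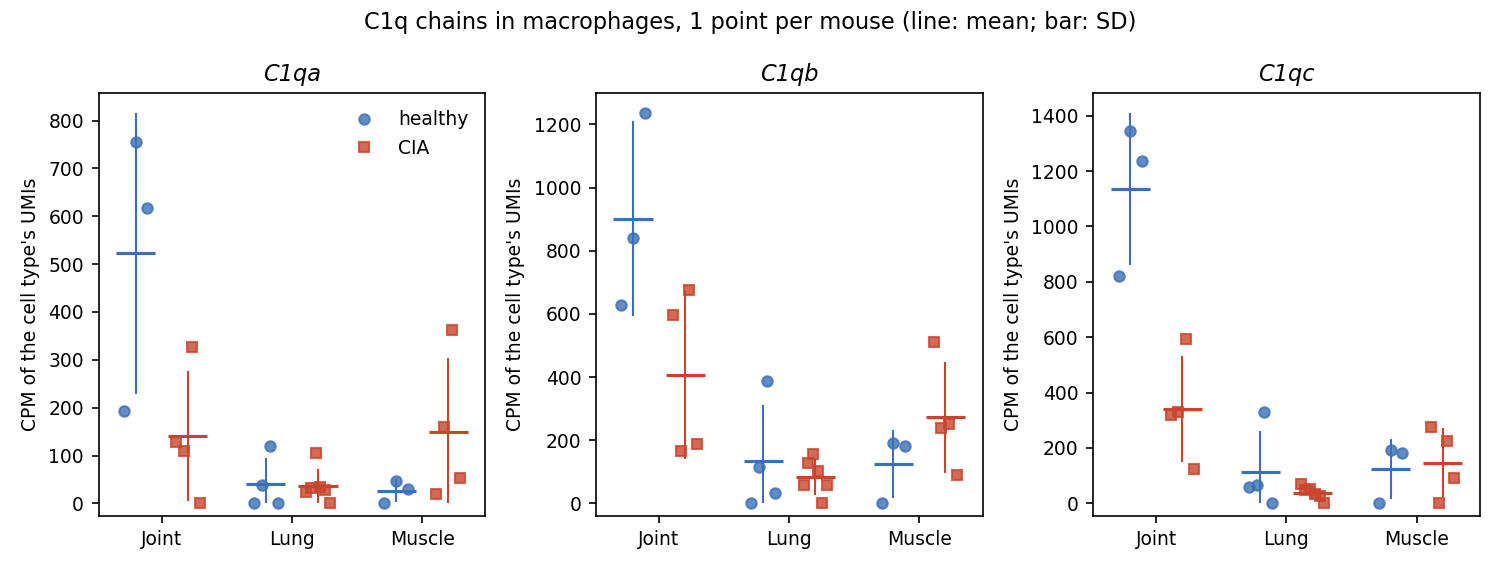
Level of C1qa, C1qb and C1qc (CPM of macrophage UMIs, linear axis) in joint, lung and muscle macrophages, 1 point per mouse with at least 10 macrophages, healthy in blue circles and CIA in red squares, with the mean as a line and the SD as a bar cut at 0. For C1qc, the 4 CIA joints (125 to 592) sat below the 3 healthy joints (823 to 1345), while the groups overlapped in lung and muscle.

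Disease was compared next, in the 11 pairs of an organ and a cell type that had 3 or more mice a group. Over 72 tests of members, 1 passed and 12 had an unadjusted edgeR p under 0.05. Of the 12, muscle fibroblasts held 5, where 11 of 173 filtered genes had such a p. Joint macrophages (57 of 273 genes) and muscle macrophages (33 of 545) held 2 each. Joint fibroblasts (180 of 1014), muscle T cells (124 of 1957) and skin fibroblasts (31 of 349) held 1 each. The single call was C1qc in joint macrophages, where 10.3% of the 273 filtered genes and 0.0714% of all genes with a count were called. Its level was 823 CPM in H3, 1345 in H4 and 1236 in H7. In CIA mice it was 320 CPM in S1, 331 in S3, 592 in S5 and 125 in S8. Every CIA joint lay below every healthy joint, a pattern shown by 4.15% of genes with at least 10 UMIs. The log2 difference was −1.59 (SE 0.39, edgeR adjusted p = 0.0323, 72 UMIs in healthy and 116 in CIA), so that C1qc fell in CIA joint macrophages.

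The call was not firm. It was lost without H3, H4, H7, S1 or S3, with adjusted p up to 0.131, and also when genes with low counts were kept (−1.01, adjusted p = 0.608). Within the experiment that held H4, H7, S5 and S8, the difference was −1.65 with an edgeR adjusted p of 0.154. The experiment of H3, S1 and S3 held 1 healthy mouse and gave no test of its own.

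C1qb followed without passing. Its level was 629 CPM in H3, 840 in H4 and 1236 in H7, against 597 in S1, 165 in S3, 676 in S5 and 188 in S8. The log2 difference was −0.99 (SE 0.44, edgeR adjusted p = 0.227), and the groups overlapped at S5. C1qa, at 194, 756 and 618 CPM in healthy and 128, 110, 326 and 0 CPM in CIA joints, differed by −0.83 (SE 0.67, adjusted p = 0.626). The groups overlapped for C1qa as well, H3 lying below S5. The share of joint macrophages with any C1q UMI was 44.4% in H3, 52.9% in H4 and 64.7% in H7. It was 19.3% in S1, 18.5% in S3, 31.8% in S5 and 9.52% in S8. At 400 UMIs per cell the shares were 33.3% to 58.8% in healthy and 9.52% to 22.7% in CIA joints, so the groups did not overlap at equal depth either. How many of all genes split the groups in this way by share of cells is not given here.

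Markers of other cells moved with this result. The 4 granulocyte markers summed to 924 to 8229 CPM in macrophages of healthy joints and 33192 to 59263 CPM in those of CIA joints, and none was at 0. Of them, S100a8 rose by 3.39 on the log2 scale (SE 0.74, edgeR adjusted p = 0.0200) and S100a9 by 2.97 (SE 0.54, adjusted p = 0.00997). The 8 tissue macrophage markers summed to 1910 to 3613 CPM in healthy and 439 to 1535 CPM in CIA joints, and Pf4 among them fell by 2.29 (SE 0.63, adjusted p = 0.0491). The 8 general macrophage markers other than C1q overlapped, at 14038 to 23698 CPM in healthy and 18249 to 30519 CPM in CIA joints, where they lay below the lowest granulocyte sum. The part of these markers in the lower C1qc was not tested.

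Neither lung nor muscle macrophages gave a call among the members, all of which were read from fits over every gene. In those fits 0.193% of genes were called in lung and 0.0685% in muscle, and among filtered genes 6.51% and 0.183%. In lung, C1qb ranged from 0 to 388 CPM in 4 healthy mice (median 74.0) and from 0 to 158 in 6 CIA mice (median 81.0). The log2 differences in lung were −0.80 (C1qb, SE 0.59), −1.26 (C1qc, SE 0.68) and −0.38 (C1qa, SE 0.85). In muscle, C1qb was 0 CPM in H4, 191 in H6 and 181 in H7, against 512 in S2, 239 in S3, 252 in S5 and 90.1 in S6. The muscle differences were 1.19 (C1qb, SE 0.75), 0.51 (C1qc, SE 0.78) and 2.29 (C1qa, SE 1.10), with an edgeR adjusted p of 0.669 for C1qb and C1qa and 0.756 for C1qc. C1qa in muscle rested on 2 UMIs in healthy and 22 in CIA mice, and the groups overlapped for each chain. The test of the difference in disease effect between joint and muscle did not pass for C1qa (−3.65, SE 1.47, edgeR adjusted p = 0.227).

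Serping1, the C1 inhibitor, gave the one other call in macrophages. It was lower in lung than in muscle macrophages (1 against 17 UMIs, a ratio of 27.8 for muscle over lung with a 95% counting interval of 4.36 to 1162, which covers counting error only). The edgeR log2 difference was −3.15 (SE 0.84, adjusted p = 0.0184), in a comparison where 1.58% of genes with a count were called. All 17 muscle UMIs came from S5 (8) and S6 (9), and the call was lost without S1, S5 or S6. It was also lost with experiment as a term (−2.68, adjusted p = 0.0808) and with the mouse as a block (−2.57, adjusted p = 0.627). In healthy mice alone the difference had the other sign (1.42, adjusted p = 0.733). T cells of CIA muscle also held 16 Serping1 UMIs against 0 in healthy muscle (edgeR adjusted p = 0.805, where 0.0511% of filtered genes and 0.147% of all genes with a count were called), and the part of free RNA was not tested.

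Joint, muscle and skin were the 3 organs with enough fibroblasts. With healthy and CIA mice pooled, the fibroblast genes were highest in muscle or joint and lowest in skin. Lung gave only 18 fibroblasts, with C3 at 729 CPM from 8 UMIs, and was left out. Serping1 stood at 725 CPM in joint, 1106 in muscle and 335 in skin fibroblasts, pooled over healthy and CIA mice. C3, the central component, was at 284, 607 and 119 CPM in the same order. The protease genes C1ra (248, 534 and 113 CPM) and C1s1 (142, 259 and 96.2 CPM) followed the same order of organs. C4b was at 153, 214 and 106 CPM. Cfb, at 87.6 CPM in joint and 81.1 CPM in muscle, was lowest in skin of the 3 as well. S5 gave 174 and S6 gave 85 of the 377 muscle fibroblasts. Pooled healthy muscle fibroblasts held less: Serping1 at 852, C3 at 267, C1ra at 317, C1s1 at 134, C4b at 33.4 and Cfb at 16.7 CPM. Serping1 was 1009 to 1285 CPM in single healthy joints. C4b was 0 to 76.5 CPM in healthy muscles, below healthy skin of H3 (212 CPM) and H4 (222 CPM), so its organ order did not hold there.

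In each of 2 organ pairs, 3 members passed the test. Joint fibroblasts exceeded skin fibroblasts in C1ra (log2 difference 1.39, SE 0.45), C3 (1.52, SE 0.49) and Serping1 (1.43, SE 0.31). Their edgeR adjusted p values were 0.0232, 0.0226 and 0.00119, in a comparison where 28.6% of filtered genes were called. Muscle fibroblasts exceeded skin fibroblasts in C1ra (2.00, SE 0.44), C3 (2.07, SE 0.48) and Serping1 (1.63, SE 0.31). Their adjusted p values were 0.00139, 0.00228 and 0.000259, where 25.2% of filtered genes were called. Only these 3 members passed the count filter. C1s1, C4b and Cfb, read from the fit over every gene, did not pass in any pair. That fit called 3.27% of genes between joint and skin, 2.03% between muscle and skin and 1.15% between joint and muscle. Between joint and muscle, where 2.52% of filtered genes were called, no member passed, the nearest to the threshold being C1ra (−0.60, SE 0.42, adjusted p = 0.434) and C1qb (1.87, SE 0.88, adjusted p = 0.433).

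The calls against skin differed in firmness. Serping1 held in both pairs without any 1 mouse and under all other settings. C1ra in the joint was lost without H7 or S5 and with the mouse as a block (1.19, adjusted p = 0.114). C3 in the joint was lost without H4, H7 or S5. In healthy mice alone, 3 of the 6 calls remained: C1ra and Serping1 between joint and skin, and Serping1 between muscle and skin.

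**Figure D3:**
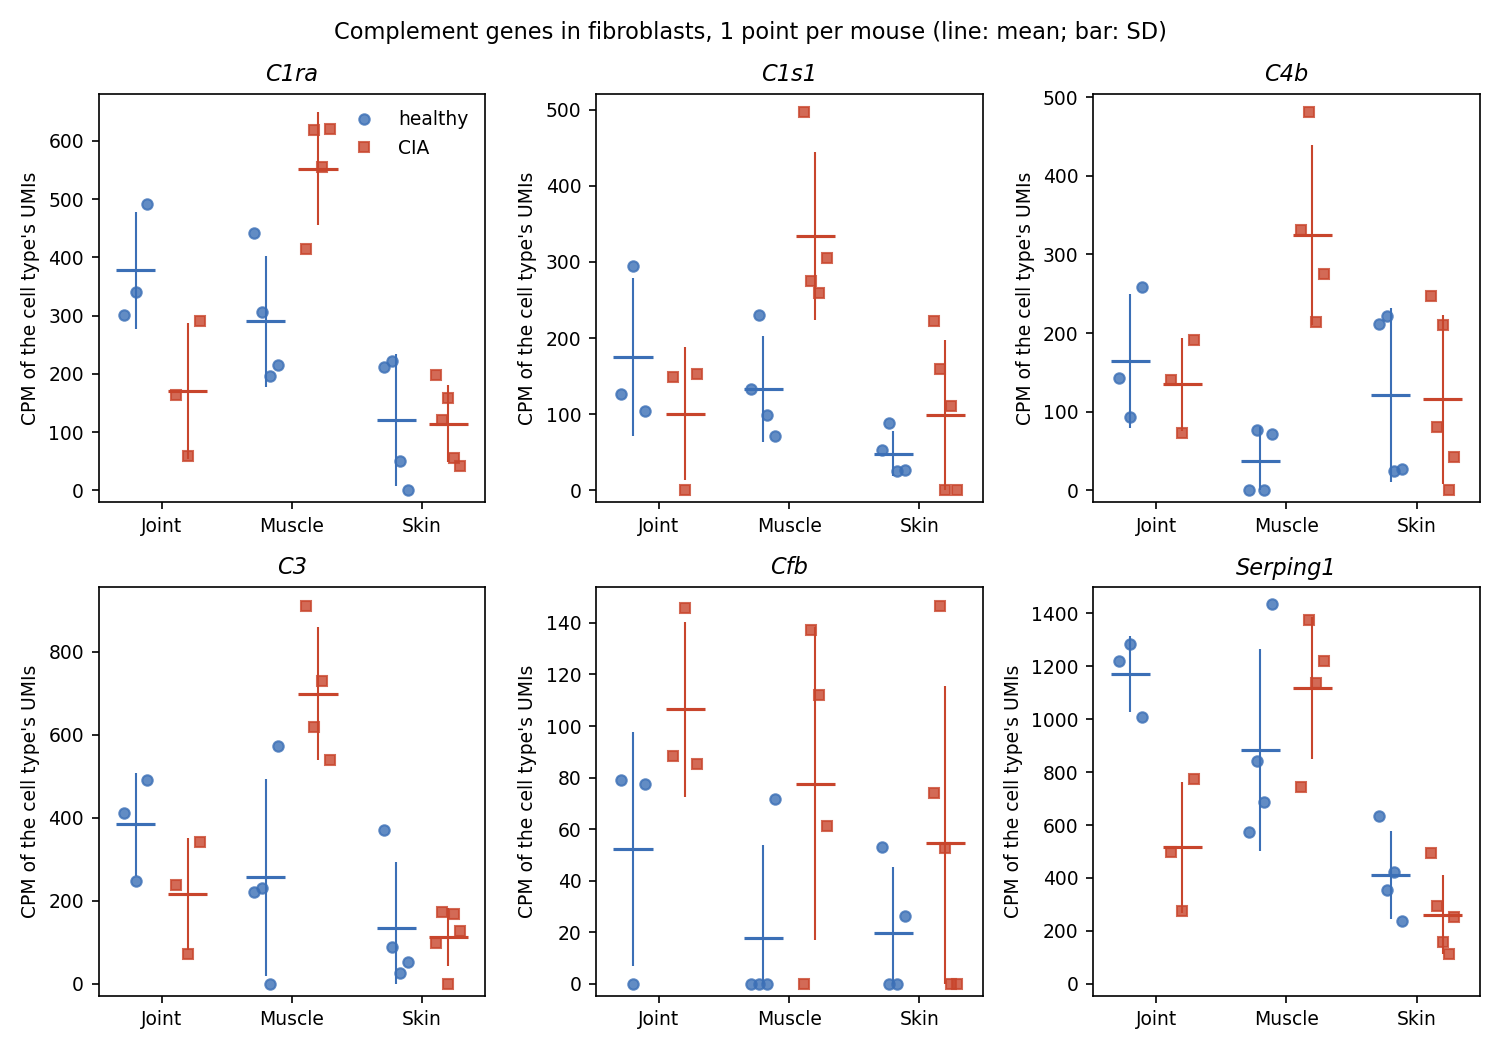
Level of 6 complement genes (CPM of fibroblast UMIs, linear axes) in joint, muscle and skin fibroblasts, 1 point per mouse with at least 10 fibroblasts, healthy in blue circles and CIA in red squares, with the mean as a line and the SD as a bar cut at 0. Joint Serping1 was 1009 to 1285 in healthy and 277 to 773 in CIA mice, and muscle C4b was 0 to 76.5 in healthy and 214 to 481 in CIA mice.

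In joint fibroblasts, no member passed for disease, while 1.68% of filtered genes and 0.52% of all genes with a count did. The median log2 difference of the 9 members, of which only 3 were past the count filter, was −0.77. Over the 1014 filtered genes the median was 0.06, which is not a like background. Serping1 came nearest to the threshold, at 1219 CPM in H3, 1285 in H4 and 1009 in H7. It stood at 499 CPM in S1, 277 in S3 and 773 in S5. The groups did not overlap, and the log2 difference was −1.24 (SE 0.42, edgeR adjusted p = 0.183). C1ra did not overlap either, with 301, 341 and 492 CPM in healthy and 163, 58.3 and 291 CPM in CIA joints (−1.12, SE 0.53, adjusted p = 0.311). These were 2 of 7 members with at least 10 UMIs that lay below, against 5.61% of all genes. Cfb, factor B of the alternative route, was 79.1, 0 and 77.6 CPM in healthy and 88.5, 146 and 85.1 CPM in CIA joints. It was the 1 member whose CIA mice all lay above (1.44, SE 0.75, adjusted p = 0.719), as did 10.2% of genes.

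The remaining members in joint fibroblasts overlapped between groups. C3 was 411, 248 and 492 CPM in H3, H4 and H7 against 238, 72.9 and 340 CPM in S1, S3 and S5 (−0.79, SE 0.52, edgeR adjusted p = 0.448). C4b differed by 0.28 (SE 0.60) and C1s1 by −0.33 (SE 0.60). In S3 no C1s1 UMI was found among 56 fibroblasts. Granulocyte markers in joint fibroblasts summed to 1393 to 5900 CPM in healthy and 13231 to 29491 CPM in CIA mice, and fibroblast markers to 25516 to 41851 and 19204 to 56564 CPM. Their part in the lower Serping1 and C1ra values was not tested.

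In muscle fibroblasts the members lay the other way. All 8 members with a UMI had fitted values above 0 (median 1.79), 5 of them with an unadjusted edgeR p under 0.05, and none passed after adjustment. The 173 filtered genes had a median of 0.01, and 11 of them had an unadjusted p under 0.05. Only 1 member was past that filter, so these genes are not a like background for members with low counts. None of the 173 filtered genes was called (0%), and 0.0117% of all genes with a count were. C4b, whose protein is cleaved by C1s, was 0 CPM in H3, 76.5 in H4, 0 in H6 and 71.7 in H7. It was 331 CPM in S1, 481 in S2, 214 in S5 and 275 in S6. The groups did not overlap, and pooled CIA fibroblasts held 7.45 times the healthy level with a 95% counting interval of 2.00 to 62.6, from 2 UMIs in healthy and 80 in CIA mice. The fitted log2 difference was 3.43 (SE 1.00, edgeR adjusted p = 0.666).

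C1s1 did not overlap either. It stood at 132 CPM in H3, 230 in H4, 98.3 in H6 and 71.7 in H7, against 496 in S1, 275 in S2, 260 in S5 and 305 in S6. Its log2 difference was 1.66 (SE 0.78, edgeR adjusted p = 0.666). These were 2 of 6 members with at least 10 UMIs that lay above, against 1.65% of all genes. C3 was 221, 230, 0 and 574 CPM in healthy and 910, 618, 728 and 539 CPM in CIA muscle (1.82, SE 0.67), the groups overlapping at H7 and S6. C1ra was 441, 306, 197 and 215 CPM in healthy and 414, 618, 555 and 621 CPM in CIA muscle (1.36, SE 0.66), and H3 lay above S1. Serping1 differed by 0.51 (SE 0.30) and overlapped. The healthy muscles held 14 to 29 fibroblasts each and the CIA muscles 16 to 174, and fibroblast markers summed to 11894 to 31604 and 28287 to 42305 CPM.

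Skin fibroblasts showed no call among the members, and neither did Basal III cells of the skin. Of all genes with a count, 0.0766% and 0.0818% were called in these cells. Serping1 was 635, 355, 422 and 238 CPM in healthy mice and 493.2, 293, 158, 111 and 253 CPM in CIA mice, with a difference of −0.34 (SE 0.50). The skin groups overlapped for Serping1, C1ra, C1s1, C4b, C3 and Cfb. The disease effect was then compared between organs in one model. None of 54 interaction tests of members passed by edgeR or DESeq2, and 10 had an unadjusted p under 0.05 by edgeR. Of these 10, 4 lay between joint and muscle fibroblasts, where 96 of 1134 filtered genes had such a p. Joint against muscle macrophages held 3 (130 of 913 genes). The macrophage pairs with lung (81 and 108 of 913) and muscle against skin fibroblasts (49 of 1134) held 1 each. In macrophages, the model called 0.11% of filtered genes between joint and lung, 2.41% between joint and muscle and 1.2% between lung and muscle. The shares of all genes with a count were 0%, 0.0932% and 0.054%. Between joint and muscle fibroblasts, where 0.176% of filtered genes and 0.0446% of all genes with a count were called, the fitted difference was below 0 for all 9 members, of which 5 passed the count filter. Their median was −2.13, against −0.09 over the 1134 filtered genes, which is not a like background for the members read from the fit over every gene. Serping1 differed by −1.74 (SE 0.56, edgeR adjusted p = 0.232), C1ra by −2.11 (SE 0.78, adjusted p = 0.311), C3 by −2.30 (SE 0.87, adjusted p = 0.335) and C4b by −3.43 (SE 1.26, adjusted p = 0.311). The difference of disease effect between joint and skin fibroblasts, where 0% and 0.0134% of genes were called, did not pass for any member either. The opposite signs in joint and muscle fibroblasts were therefore not established as a difference.

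**Figure D4:**
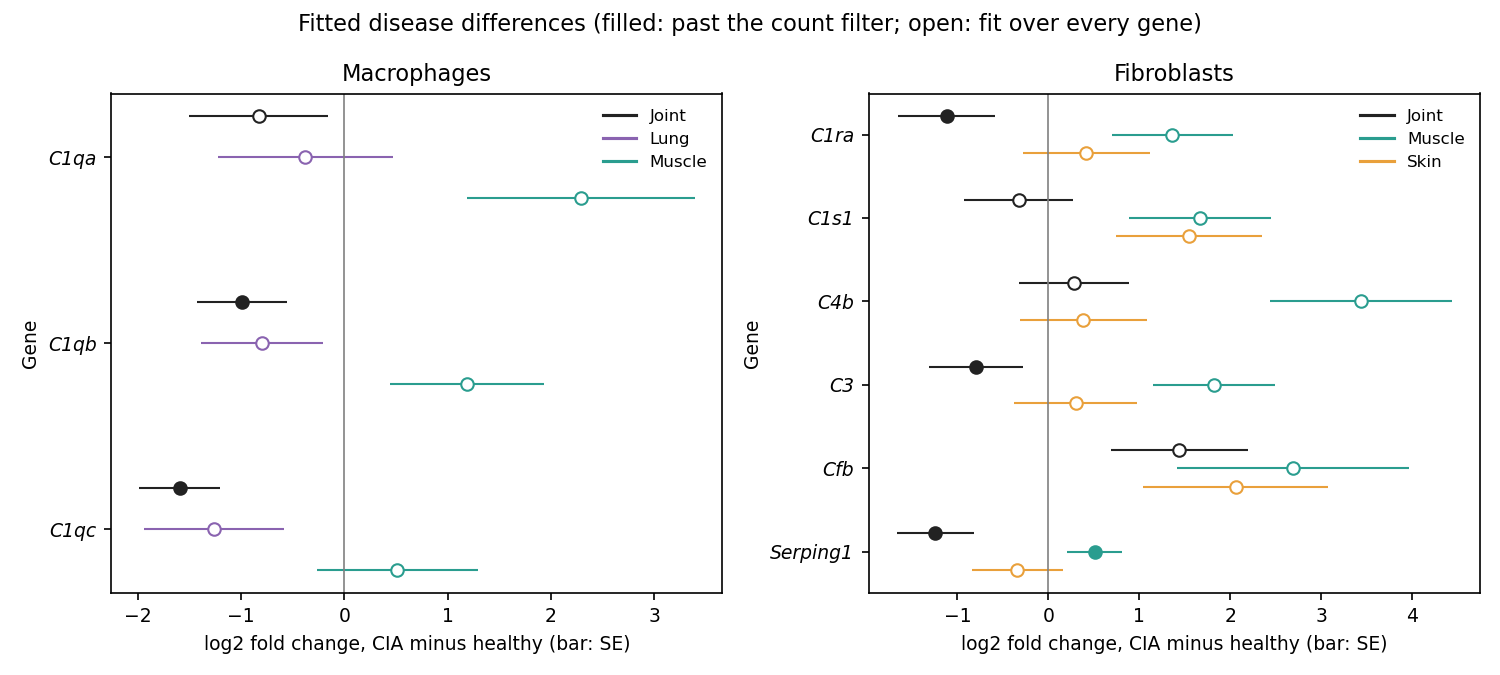
Fitted log2 fold change of CIA over healthy mice (horizontal axis, bar: SE) for the C1q chains in macrophages of joint, lung and muscle and for the other 6 genes in fibroblasts of joint, muscle and skin. Filled points passed the count filter and open points are from the fit over every gene. The fibroblast genes of muscle lay from 0.51 to 3.43, and joint C1qc, at −1.59, was the 1 value past the threshold.

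Whole organs were compared next, by summing all annotated cells of a sample. In such sums, fewer cells of a type and less RNA per cell cannot be told apart. In joint, no member passed, while 0.127% of filtered genes and 0.274% of all genes with a count did. C1qa, C1qb, C1qc, C1ra and Serping1 did not overlap between groups, all being lower in every CIA joint. That was 5 of 9 members, against 3.17% of genes with at least 10 UMIs. C1qc was 217, 135 and 306 CPM in H3, H4 and H7. In S1, S3, S5, S6 and S8 it was 53.2, 64.8, 79.9, 47.8 and 26.0 CPM (−1.67, SE 0.46, edgeR adjusted p = 0.193). Serping1 was 479, 592 and 556 CPM in healthy and 191, 162, 212, 47.8 and 65.1 CPM in CIA joints (−1.71, SE 0.49, adjusted p = 0.204).

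The cell makeup of these joints also differed. Fibroblasts were 42.2% to 52.8% of annotated cells in healthy and 4.82% to 44.4% in CIA joints. Granulocytes were 3.14% to 13.9% and 14.0% to 54.2%, and the macrophage shares overlapped (10.7% to 23.6% and 3.51% to 25.3%). Their part in the lower C1q, C1ra and Serping1 was not tested. Over all 9 members the median log2 difference in joint was −1.33, with 8 values below 0 and Cfb above it (1.17). The median was 0.02 over the 2364 filtered genes. Only 5 members were among these, so that median is not a like background. By DESeq2, C1qc and Serping1 passed in whole joints, where neither passed by edgeR. The share of all genes that passed by DESeq2 is not given here, so these calls stand without a background.

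No member passed in whole lung, where 4.96% of filtered genes and 0.435% of all genes with a count were called, or in whole skin, where 0% and 0.152% were. In muscle, 1 member passed. C4b had 2 UMIs over the 4 healthy muscles and 102 over the 6 CIA muscles. It was 0, 6.30, 0 and 2.75 CPM in H3, H4, H6 and H7. In S1, S2, S3, S5, S6 and S8 it was 149, 15.6, 0, 132, 21.3 and 0 CPM. The groups overlapped, since S3 and S8 had none. Pooled, C4b rose 14.7-fold in CIA muscle (95% counting interval 3.97 to 123), and the fitted log2 difference was 3.97 (SE 0.97, edgeR adjusted p = 0.0211). Of all genes with a count 0.25% were called, and of filtered genes 0.055%. S5 gave 54 and S6 gave 35 of the 102 UMIs. The call was lost without H3, H4, H6, H7, S1, S2 or S5 (adjusted p up to 0.456). It was also lost without cells of shared barcodes (3.81, adjusted p = 0.0599), an alternative chosen after seeing the data, and DESeq2 gave C4b no adjusted p. Within the experiment of H4, H6, H7, S5, S6 and S8 the difference was 4.00, with an edgeR adjusted p of 0.118. All 9 members had fitted values above 0 in CIA muscle (median 1.79). The median was 0.05 over the 3634 filtered genes, not a like background, since only 2 members were among them. Fibroblasts made up 3.78% to 41.4% of healthy and 0% to 50% of CIA muscle cells. Red blood cells had been lysed in muscle of H6, H7, S2, S3, S6 and S8, in both groups, and the part of cell makeup in the C4b difference was not tested.

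In spleen, C3 was the member that passed. It had 1 UMI over 4 healthy spleens, in H4 (2.43 CPM), and none in H3, H6 or H7. The 6 CIA spleens held 26.3 CPM in S1, 47.5 in S2, 27.9 in S3, 14.2 in S5, 14.9 in S6 and 39.7 in S8. Every CIA spleen lay above every healthy spleen, as did 0.746% of genes with at least 10 UMIs. The pooled ratio was 26.4 (95% counting interval 4.58 to 1058, from 1 and 68 UMIs). The log2 difference was 4.29 (SE 1.01, edgeR adjusted p = 0.0043), where 0.747% of all genes with a count and 0.137% of filtered genes were called, so that C3 rose in the CIA spleen. S2 alone held 41 of the 68 UMIs, and without it the adjusted p was 0.0893. Within the experiment of H4, H6, H7, S5, S6 and S8 the difference was 3.49 with an adjusted p of 0.570.

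**Figure D5:**
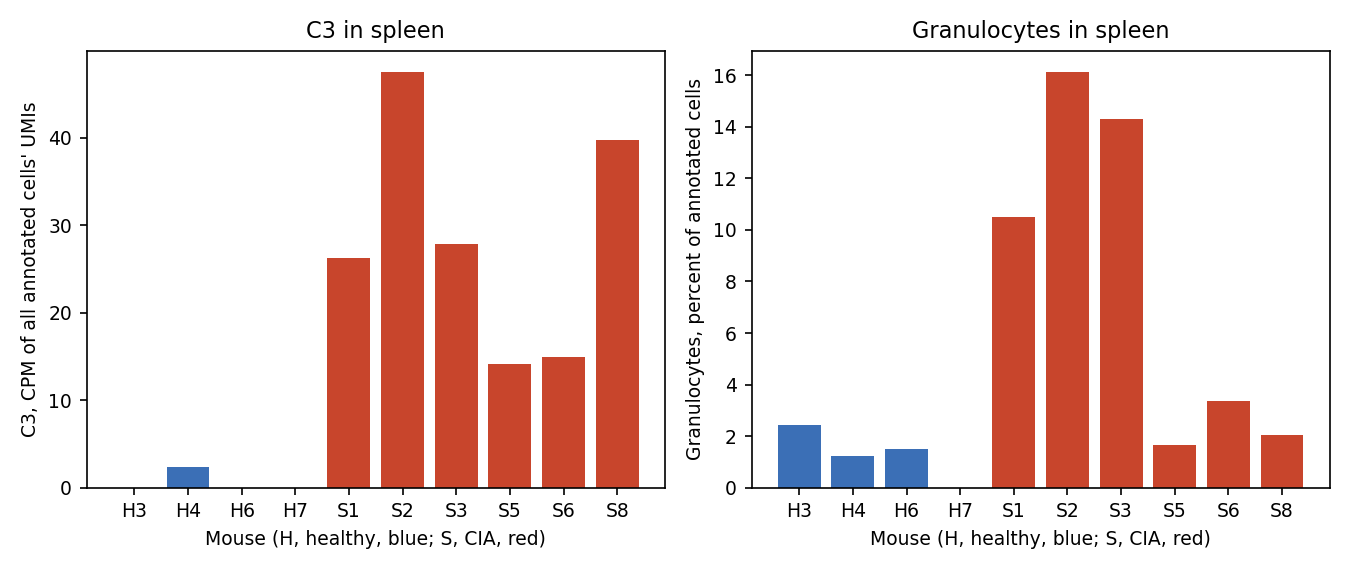
C3 in all annotated spleen cells (left, CPM of all annotated cells' UMIs) and granulocytes as a percent of annotated spleen cells (right) in each mouse, healthy in blue and CIA in red. C3 was 14.2 to 47.5 CPM in CIA mice and at most 2.43 CPM in healthy mice, and granulocytes were 1.67% to 16.1% and 0% to 2.42% of cells.

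The C3 of CIA spleens came mostly from granulocytes. They held 43 of the 68 UMIs, in 233 cells, at 156 CPM. Healthy spleens had 12 granulocytes with no C3 UMI, which allows up to 317 CPM, so C3 per granulocyte could not be compared. Monocytes, with 356 cells in CIA and 172 in healthy spleens, held 13 UMIs (36.5 CPM) and 1 UMI (6.10 CPM). The monocyte difference did not pass (2.18, SE 1.25, edgeR adjusted p = 0.628), while 6.36% of filtered genes and 0.485% of all genes with a count did. B cells and NK cells of the spleen had at most 1 UMI of any member in a group, and 0.0831% and 0.0971% of their genes were called. Granulocytes were 1.67% to 16.1% of CIA and 0% to 2.42% of healthy spleen cells, and their part in the higher C3 was not tested.

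Granulocytes held C3 in other organs as well. Joint granulocytes of CIA mice held 126 CPM in S1, 128 in S3, 231 in S5, 167 in S6 and 94.6 in S8. Those of healthy joints held 83.5 CPM in H3, 900.5 in H4 and 404 in H7, from 2, 4 and 3 UMIs. These groups overlapped. Healthy muscle granulocytes held 233, 101, 201 and 279 CPM in H3, H4, H6 and H7, over 5 to 73 cells.

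The source of the UMIs was also compared by mouse. In joint, macrophages gave 87.5% ± 9.38 (SD, n = 3) of C1q UMIs in healthy and 84.8% ± 7.05 (n = 3) in CIA mice. The difference of −2.74 percentage points did not exceed the spread (exact permutation test, two-sided, p = 0.8, adjusted p = 0.8, where the smallest possible p was 0.1). Muscle was not tested for C1q, since H7 was the only healthy mouse with at least 10 C1q UMIs there. Its macrophage share was 92.9% in H7. In CIA muscle it was 92.6% in S1, 97.6% in S2, 54.5% in S5 and 72.2% in S6. Fibroblasts gave 89.1% ± 9.02 (n = 3) of the UMIs of the other 6 genes in healthy joints and 67.6% ± 38.8 (n = 5) in CIA joints. That comparison gave an exact permutation p of 0.321 (adjusted p = 0.429), and S8, with 4 fibroblasts, had 0 of 14 UMIs in them. Without S8 the difference shrank from −21.5 to −4.62 percentage points, and with equal weight of cell types to −3.13. In muscle the shares were 60.4% ± 24.7 and 80.6% ± 13.4 (n = 4 each, exact permutation p = 0.2, adjusted p = 0.429). In skin they were 94.8% ± 6.25 and 84.4% ± 12.7 (n = 4 each, exact permutation p = 0.229, adjusted p = 0.429). With equal weight of cell types the skin shares were 97.4% and 64.4% (exact permutation p = 0.0286, the smallest possible, adjusted p = 0.114). None of the 4 comparisons passed.

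The genes most like each member were named by the correlation of log2(CPM + 10) over the 160 sums, among 6668 genes. After the other chains, C1qa and C1qb were most like Mrc1 (r = 0.63 and 0.71), a mannose receptor of tissue macrophages, as was C1qc (0.69). C1ra was most like Fbn1 (0.90), Clec3b (0.89) and Ccdc80 (0.88), genes of the extracellular matrix. C1s1 was most like Clec3b (0.86), C1ra (0.85) and Serping1 (0.83), and C4b like Fbn1 (0.85), C1ra (0.84) and Ccdc80 (0.83). Serping1 was most like Mfap5 (0.92), Fstl1 (0.91) and Rarres2 (0.90). Cfb was most like the pentraxin Ptx3 (0.74), Lox (0.69) and Wisp2 (0.69). The best matches of C3 were Gpx3, Pcolce and Pi16, at r = 0.67 each. C1qb and C1ra had r = −0.0014, and pairs of a C1q chain with another member ranged from −0.043 (C1qa and C1ra) to 0.14 (C1qb and C3). The sums came from different cell types, so these values cannot show whether the genes varied together within one.

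Of 44 further complement genes listed, 43 were in the table and 37 had a UMI in annotated cells. Among those with the most UMIs were Fcnb (1840), Itgb2 (803), Clu (763), Cd55 (642), C5ar1 (636), Cfp (587), Cr2 (516), Cr1l (404), Cd59a (271), Colec12 (224) and C7 (223). Granulocytes gave 70.1% of Fcnb, a ficolin, and 66.4% of C5ar1, the C5a receptor. Fibroblasts gave 74.7% of Clu and 78.5% of C7, and B cells 54.3% of Cr2, a complement receptor. Liver-made members of the list such as Mbl1, Mbl2, C8a and C8b had no UMI.

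Between CIA and healthy mice, 2 of 182 tests of these genes passed by organ and cell type and 1 of 131 by whole organ. The calls lay in joint fibroblasts, where 1.68% of filtered genes and 0.52% of all genes with a count were called, and in whole joints, where 0.127% and 0.274% were. C7, a component of the membrane attack complex, was 317, 217 and 104 CPM in fibroblasts of healthy joints H3, H4 and H7, against 18.6, 29.1 and 7.09 CPM in S1, S3 and S5. It fell by 3.38 on the log2 scale (SE 0.75, edgeR adjusted p = 0.00299) and by 3.60 in whole joints (SE 0.81, adjusted p = 0.00631). The fibroblast call for C7 was lost without H3, H7, S1 or S5, and the whole-joint call without H3, H4, H7 or S1. Within the experiment that held H4, H7, S5, S6 and S8, the whole-joint difference was −4.11 with an edgeR adjusted p of 0.782. Cfd, factor D, which cleaves factor B, had no UMI in fibroblasts of the 3 healthy joints. It had 17 in S1, 20 in S3 and none in S5, so that pooled CIA fibroblasts were at least 3.63-fold higher against a floor of 3 UMIs over the healthy group. The Cfd call (edgeR adjusted p = 0.0062) was lost without H3, H4 or S3, under DESeq2 and with experiment as a term. Both UMI-bearing mice were in the severe experiment.

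Between organs, 13 of 162 tests of these genes passed, in comparisons that called 1.69% to 29.2% of filtered genes and 0.299% to 3.27% of all genes with a count. Clu, an inhibitor of the membrane attack complex, was higher in joint than in muscle (log2 difference 3.51, SE 0.52) and skin fibroblasts (4.83, SE 0.55). Healthy joints gave 382 of its 501 joint UMIs. Its joint level was 459, 3251 and 3701 CPM in H3, H4 and H7, against 350, 14.6 and 152 CPM in S1, S3 and S5. S3 lay below muscle of S5 (96.7 CPM) and S6 (81.4 CPM). Clu was not among the genes called for disease in joint fibroblasts. C7 (3.38, SE 0.66) and C1rb (2.47, SE 0.73) were higher in muscle than in skin fibroblasts. Joint fibroblasts exceeded skin in Cd55 (2.06, SE 0.62) and Cfd, and muscle in Cd59b and Cfd. In those 3 pairings with Cfd or Cd59b, the lower organ had at most 1 UMI. Cd59b, with 19 UMIs in joint and 0 in muscle, was at least 3.30-fold higher in joint. CIA joints gave 16 of the 19 (10 in S1 and 6 in S5), and H4 gave the other 3. In macrophages, Cfp, properdin of the alternative route, was lower in lung than in muscle (−1.82, SE 0.51, edgeR adjusted p = 0.0328). Hc, which encodes C5, had 15 UMIs in lung and none in joint or muscle macrophages, at least 3.65-fold and 3.06-fold higher in lung. Both Clu calls, Cfd between joint and skin, and C7 between muscle and skin held without any 1 mouse. All 37 joint Cfd UMIs came from the severe CIA mice S1 (17) and S3 (20). Healthy fibroblasts of joint, muscle and skin had 0 Cfd UMIs, so healthy mice showed no Cfd difference between these organs. C7 between muscle and skin was lost in healthy mice alone (2.17, edgeR adjusted p = 0.414), and Clu between joint and muscle with at least 20 cells (2.72, adjusted p = 0.101). The Hc, Cfp, Cd55, Cd59b and C1rb calls were each lost without at least 4 single mice, and those 5 genes and Cfd also lost their calls with the mouse as a block. In healthy mice alone, the calls of those 5 genes were lost as well. C1rb shares reads with C1ra, as above. None of 162 interaction tests of these genes passed.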

How the data were processed

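Single-cell RNA was captured by Seq-Well from cryopreserved, enzymatically dissociated organs, with 3 samples pooled per sequencing run. The authors demultiplexed with bcl2fastq, processed reads with Picard, Drop-seq tools and STAR against GRCm38, kept cells by reads, transcripts, genes and mitochondrial share, and named cell types by SingleR, Leiden clustering of denoised data and marker genes. They deposited whole-number UMI counts per gene and cell, which were used without change, and a table of cell labels. The 9 members and all gene lists were chosen with earlier results of these data known.

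UMIs were summed per mouse, organ and cell type (at least 10 cells per mouse and 3 mice per group) or over all annotated cells, and tested with edgeR 4.0.16 (quasi-likelihood F test, TMM factors, filterByExpr) in R 4.3.3, with Benjamini-Hochberg adjustment over all genes and a threshold of 0.05. A member removed by the filter was read from the same fit over every gene with a count. Cell sums were expressed as counts per 1000000 UMIs. Organs were compared with disease as a covariate, and the difference of the disease effect by an interaction term. Shares were compared by exact two-sided permutation tests (scipy 1.17.1) where at least 10 UMIs lay behind each share. Counting intervals were exact at 95%, and a floor was 3 counts over the group. No doublet caller was run. The scripts for the tests were tested on simulated data.

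Organs of the same mouse are paired by animal. The correlation of their deviations from group means ran from −0.10 to 0.13 in 18 macrophage pairs and from −0.15 to 0.083 in 18 fibroblast pairs. Numbers shared by healthy and CIA mice name different animals, and no label ties them to a litter or day. Alternatives were DESeq2 1.42.0, other size factors, no count filter, minimums of 5 and 20 cells, experiment as a term or alone, healthy mice alone, the replicate block, each mouse left out and, chosen after seeing the data, cells of shared barcodes left out. Named genes were the 9 members, listed complement genes past the threshold or among the 12 with most UMIs, and the 3 genes most like each member. Results of 1 listed complement gene are not reported here.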

Additional observations from a re-analysis of the deposited data

Results flagged for a closer look

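In the joint of CIA mouse S8, which held 4 fibroblasts, these cells gave 0% of the 14 UMIs of C1ra, C1s1, C4b, C3, Cfb and Serping1, against a median of 85.7% in the other CIA joints, which set it apart from its group. Of 37 groups tested in this way 1 was marked, and chance marks about 1 in 20.

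The 1144 cells without a cell type label entered no comparison and held UMIs of every member, above the 4.27 CPM that a count of 0 allows. C1qa had 7 UMIs, C1qb 21 and C1qc 23. C1ra had 10, C1s1 had 7, C4b had 8 and Cfb had 5. C3 had 34 and Serping1 had 39, the 2 highest at 48.3 and 55.5 CPM.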

How the results depend on the processing

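The single call of a member by organ and cell type (C1qc, joint macrophages) was lost, leaving 0, with no filter on low counts and within the second experiment alone. With at least 20 cells and with the replicate block the count was also 0, but joint macrophages could not be fitted there, so C1qc was not tested. The count ranged from 0 to 1 without single mice. The 2 whole-organ calls became 0 within the second experiment alone, 0 with the replicate block and 1 without cells of shared barcodes, where C3 in spleen remained, and ranged from 0 to 2 without single mice. The replicate block joined healthy and CIA mice that share only a number (correlation of deviations −0.27 to −0.03 in macrophages, 0.11 to 0.25 in fibroblasts, at most 2 pairs in a comparison), gave C4b in muscle 5.64 and C3 in spleen 5.38 (edgeR adjusted p = 1 for both), and could be fitted for 4 comparisons of each kind. For organs of the same mouse, the block lost the calls named beside their results and no other member call. The 5 macrophage calls between organs ranged from 3 (without S6) to 6 without single mice, and the 6 fibroblast calls from 4 to 7, falling to 3 in healthy mice alone. Interaction calls stayed at 0. The share of C1q UMIs from macrophages changed sign without H7 (1.74) and without S3 (0.366), ranging from −7.62 to 1.74. With equal weight of cell types the muscle fibroblast share changed sign (−2.74) and the skin difference grew from −10.4 to −33.0, and Serping1 between lung and muscle macrophages did so in healthy mice alone (1.42). The cause of these changes was not tested. DESeq2 gave no adjusted p for 8 named results, which were not counted as lost. Depth limited most tests: only 6 of 72 member tests by organ and cell type passed the count filter, and macrophages or fibroblasts of single mice held few member UMIs.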
